A study of Mus musculus with 12 samples.

Results

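The 10 genes described here encode chaperones and co-chaperones of the endoplasmic reticulum (ER) lumen: Hspa5, Hsp90b1, Calr, Canx, Hyou1, Sdf2l1, Dnajb11, Dnajc3, Dnajb9 and Manf. They were chosen by name, for the place where their proteins work, and all 10 were found among the 55416 gene IDs of the count tables and passed the low-count filter that left 17702 genes. Their mRNAs were followed in a tagged subline of the mouse embryonic stem cell line E14Tg2a.4, called Rpl31-FTA after the ribosomal protein of the large subunit that bears the FTA tag. All cells came from this single tagged line and carried transfected plasmids for ALIBi, a proximity-labelling system that was directed to the ER, where it biotinylates tagged ribosomes. The 12 libraries form 4 groups of 3 biological replicates: ribosome-bound RNA purified through the ER label from cells with Lsg1 siRNA, the same from cells with scramble siRNA, whole-cell RNA from cells with Lsg1 siRNA, and whole-cell RNA from cells with scramble siRNA. Whole-cell RNA was an aliquot of the lysate that went into each purification, so that each of the 6 lysates gave 1 ER-bound and 1 whole-cell library. No library held the RNA of all ribosomes, so a higher ER-bound level can reflect how many ribosomes an mRNA carries as well as where they sit. Nothing in the labels says that the replicates came from separate cultures beyond the word biological, and p-values rest on the spread between these samples.

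Proteins that enter the secretory pathway are usually made by ribosomes docked on the ER, to which a hydrophobic signal near the start of the growing chain directs them. Inside the ER, the Hsp70 protein BiP binds unfolded chains in a cycle driven by ATP, in which J-domain proteins start ATP hydrolysis and exchange factors release the nucleotide. Calnexin and calreticulin hold glycoproteins through their sugar chains, and the Hsp90 protein Grp94 acts late in folding. When unfolded proteins build up, the sensors of the unfolded protein response raise the transcription of most of these genes.

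Reads in genes numbered 38092178 in the shallowest library and 56522114 in the deepest. Lsg1, the siRNA's target, is a GTPase that acts in the last steps of large ribosomal subunit maturation. Its level in ER-bound RNA was 35.4, 42.5 and 52.5 CPM (read counts scaled to library size, after TMM normalization) with Lsg1 siRNA, against 143, 149 and 151 CPM with scramble siRNA. Its whole-cell level was 83.5, 96.7 and 114 CPM with Lsg1 siRNA, against 136, 144 and 149 CPM with scramble siRNA, so that the groups did not overlap in either fraction. The edgeR log2 fold of Lsg1 was -1.77 (SE 0.11, Benjamini-Hochberg adjusted p = 6.3e-08) in ER-bound RNA, and -0.55 (SE 0.10) in whole-cell RNA, where the edgeR adjusted p of 0.25 did not pass. The first principal component of genes with at least 10 CPM held 94.1% of the variance and set the 6 ER-bound libraries apart from the 6 whole-cell ones. All 10 embryonic stem cell markers averaged at least 1 CPM, with a summed level of 10602 to 11449 CPM in ER-bound RNA and 8604 to 8721 CPM in whole-cell RNA. Of 8 fibroblast markers 3 averaged at least 1 CPM, with a sum of 47.9 to 58.3 CPM in ER-bound and 27.1 to 30.0 CPM in whole-cell RNA, and Lum had no read in any library. Of 8 primitive endoderm markers 7 averaged at least 1 CPM, with a sum of 53.6 to 58.2 CPM in ER-bound and 74.2 to 79.4 CPM in whole-cell RNA. Most of that sum was Col4a1 and Lama1. Lama1 had group means of 20.6 to 22.0 CPM in ER-bound and 41.9 to 43.1 CPM in whole-cell RNA. Pdgfra is counted in both lists. In these bulk samples fewer cells of a type and less RNA per cell cannot be told apart. The gene ENSMUSG00000119584.1 took 18469 CPM in ER-bound scramble replicate 3 and 15604 CPM in whole-cell Lsg1 replicate 3, against 1115 to 4143 CPM in the other 10 libraries.

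All 10 chaperone mRNAs were higher in ER-bound than in whole-cell RNA, with either siRNA. The difference was called for 10 of 10 genes in Lsg1 siRNA cells and for 10 of 10 in scramble siRNA cells, in the quasi-likelihood test of edgeR (Benjamini-Hochberg, threshold 0.05). Of all 17702 genes tested, 30.6% were called higher and 29.8% lower in Lsg1 siRNA cells, and 29.8% were called higher and 29.1% lower in scramble siRNA cells. For each of the 10 genes every ER-bound library lay above every whole-cell library, which was the case for 33.0% of all genes with Lsg1 siRNA and 32.6% with scramble siRNA. The median log2 fold of the 10 was 0.86 in Lsg1 siRNA cells and 0.82 in scramble siRNA cells, beside 0.023 and 0.030 over all genes in the same cells. Together the 10 mRNAs took 0.441% to 0.475% of gene reads in ER-bound libraries and 0.247% to 0.256% in whole-cell libraries.

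**Figure D1:**
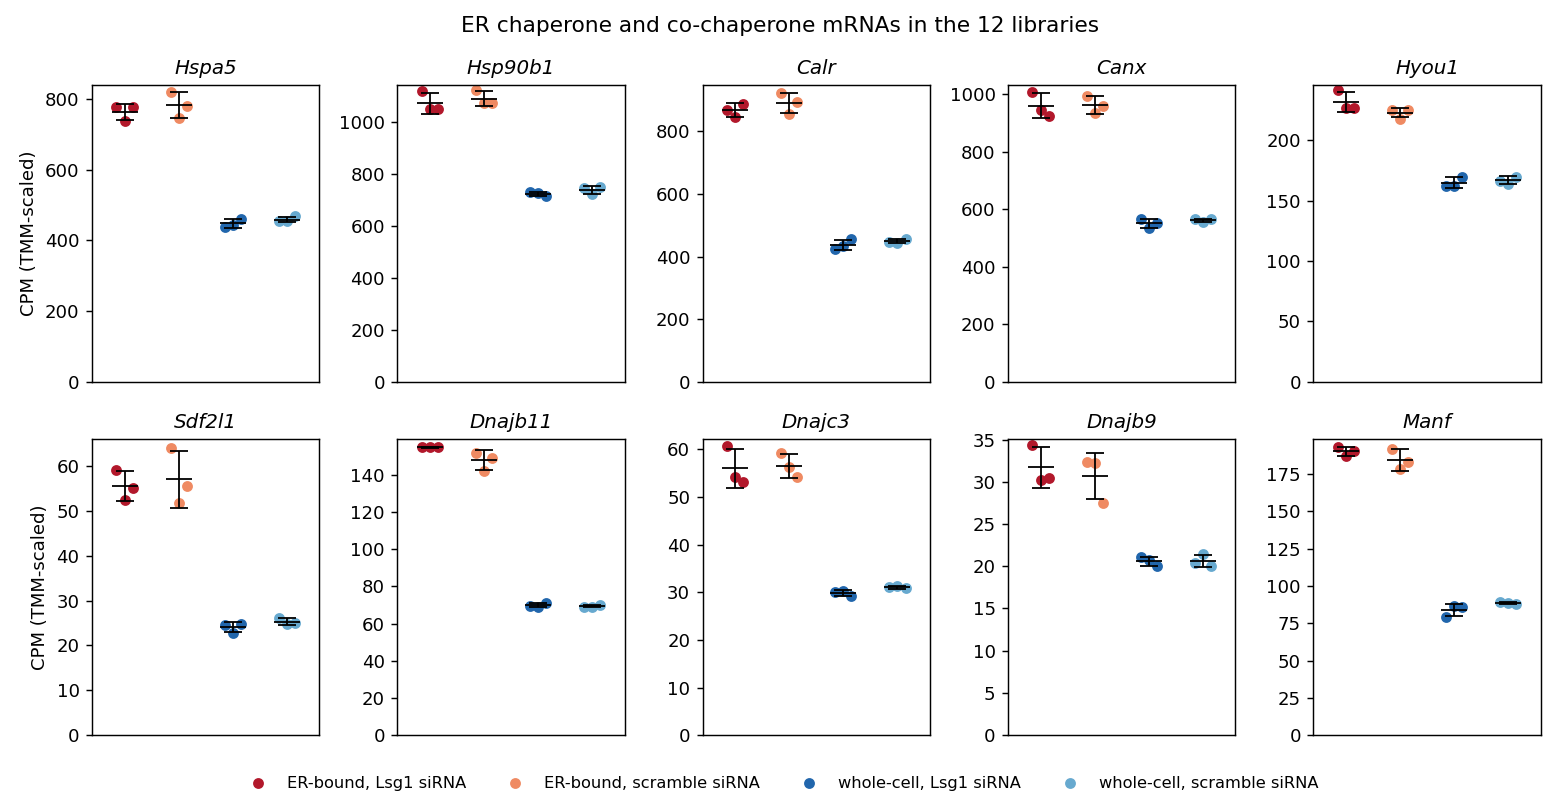
Level of each chaperone mRNA in CPM (TMM-scaled, vertical axis from 0) in the 12 libraries, 1 panel per gene; points are libraries, bars the mean and SD of 3 replicates. In every panel the 6 ER-bound points lie above the 6 whole-cell points, while the points of the siRNA groups lie close together, as for Hspa5 at 738 to 821 CPM in ER-bound and 437 to 468 CPM in whole-cell RNA.

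Hspa5 encodes BiP, the Hsp70 protein of the ER lumen. In ER-bound RNA Hspa5 stood at 778, 738 and 777 CPM with Lsg1 siRNA and at 821, 747 and 781 CPM with scramble siRNA. Whole-cell Hspa5 stood at 437, 444 and 461 CPM with Lsg1 siRNA and at 455, 456 and 468 CPM with scramble siRNA. The ER-bound libraries were all higher, and the siRNA groups overlapped within each fraction. Its log2 fold of ER-bound over whole-cell RNA was 0.77 (SE 0.03) in Lsg1 siRNA cells and 0.77 (SE 0.03) in scramble siRNA cells. Hsp90b1 encodes Grp94, the Hsp90 protein of the ER. In ER-bound RNA Hsp90b1 reached 1121, 1051 and 1051 CPM with Lsg1 siRNA and 1124, 1075 and 1076 CPM with scramble siRNA. Whole-cell Hsp90b1 stood at 730, 726 and 716 CPM with Lsg1 siRNA and at 746, 723 and 750 CPM with scramble siRNA. The gap between fractions was clear of the replicate spread but smaller than for Hspa5, with log2 folds of 0.57 (SE 0.03) in Lsg1 siRNA cells and 0.56 (SE 0.03) in scramble siRNA cells.

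Calr and Canx encode the lectin chaperones calreticulin, a soluble protein, and calnexin, which is anchored in the membrane. In ER-bound RNA Calr stood at 869, 845 and 888 CPM with Lsg1 siRNA and at 922, 857 and 893 CPM with scramble siRNA. Whole-cell Calr stood at 424, 434 and 456 CPM with Lsg1 siRNA and at 446, 444 and 457 CPM with scramble siRNA. Its fractions did not overlap, and its siRNA groups did. The Calr log2 fold was 0.99 (SE 0.03) in Lsg1 siRNA cells and 0.99 (SE 0.03) in scramble siRNA cells. Canx had 1008, 946 and 924 CPM in ER-bound RNA with Lsg1 siRNA, and 993, 933 and 958 CPM with scramble siRNA. In whole-cell RNA Canx had 565, 535 and 551 CPM with Lsg1 siRNA, and 565, 555 and 564 CPM with scramble siRNA. Here too all ER-bound libraries were higher. The Canx log2 folds were 0.80 (SE 0.03) in Lsg1 siRNA cells and 0.78 (SE 0.03) in scramble siRNA cells.

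Dnajb11, Dnajc3 and Dnajb9 encode the J-domain proteins ERdj3, p58IPK and ERdj4, which bring substrates to BiP and start its ATP hydrolysis, and Sdf2l1 encodes a small partner of ERdj3. Dnajb11 had 155, 155 and 155 CPM in ER-bound RNA with Lsg1 siRNA, and 152, 142 and 149 CPM with scramble siRNA. In whole-cell RNA Dnajb11 had 69.5, 68.9 and 71.2 CPM with Lsg1 siRNA, and 68.9, 69.2 and 70.1 CPM with scramble siRNA. Its fractions were far apart, with log2 folds of 1.15 (SE 0.03) in Lsg1 siRNA cells and 1.09 (SE 0.03) in scramble siRNA cells. Sdf2l1 had 59.2, 52.4 and 55.1 CPM in ER-bound RNA with Lsg1 siRNA, and 64.1, 51.8 and 55.5 CPM with scramble siRNA. In whole-cell RNA Sdf2l1 had 24.6, 22.8 and 24.8 CPM with Lsg1 siRNA, and 26.1, 24.7 and 25.1 CPM with scramble siRNA. It had the highest log2 fold of the 10, 1.21 (SE 0.07) in Lsg1 siRNA cells and 1.18 (SE 0.07) in scramble siRNA cells, and the widest error.

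Dnajc3 and Dnajb9 were the lowest of the 10 mRNAs per length. In ER-bound RNA Dnajc3 stood at 60.7, 54.2 and 53.2 CPM with Lsg1 siRNA and at 59.2, 56.2 and 54.1 CPM with scramble siRNA. Whole-cell Dnajc3 stood at 30.0, 30.3 and 29.2 CPM with Lsg1 siRNA and at 31.0, 31.3 and 30.8 CPM with scramble siRNA. All 3 whole-cell Lsg1 siRNA libraries were thus below the 3 scramble ones, by less than the test could call. The Dnajc3 log2 folds between fractions were 0.91 (SE 0.05) in Lsg1 siRNA cells and 0.86 (SE 0.05) in scramble siRNA cells. In ER-bound RNA Dnajb9 stood at 34.4, 30.2 and 30.4 CPM with Lsg1 siRNA and at 32.3, 32.2 and 27.5 CPM with scramble siRNA. Whole-cell Dnajb9 stood at 21.1, 20.7 and 20.0 CPM with Lsg1 siRNA and at 20.4, 21.4 and 20.0 CPM with scramble siRNA. Fractions did not overlap, and the log2 folds were 0.62 (SE 0.06) in Lsg1 siRNA cells and 0.58 (SE 0.06) in scramble siRNA cells. The adjusted p of Dnajb9, 9.5e-08 in Lsg1 siRNA cells and 3.0e-07 in scramble siRNA cells, was the highest of the 10 in edgeR's quasi-likelihood test (Benjamini-Hochberg).

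Hyou1 encodes Grp170, a large Hsp70 relative that releases ADP from BiP, and Manf encodes a small secreted and ER-resident protein that binds BiP and slows its nucleotide exchange. In ER-bound RNA Hyou1 stood at 242, 227 and 227 CPM with Lsg1 siRNA and at 225, 218 and 225 CPM with scramble siRNA. Whole-cell Hyou1 stood at 162, 162 and 170 CPM with Lsg1 siRNA and at 166, 164 and 170 CPM with scramble siRNA. Hyou1 had the lowest log2 fold of the 10, 0.49 (SE 0.03) in Lsg1 siRNA cells and 0.42 (SE 0.03) in scramble siRNA cells. Manf had 193, 187 and 190 CPM in ER-bound RNA with Lsg1 siRNA, and 192, 178 and 183 CPM with scramble siRNA. In whole-cell RNA Manf had 79.4, 86.5 and 85.6 CPM with Lsg1 siRNA, and 89.0, 88.7 and 87.6 CPM with scramble siRNA. Its log2 folds were 1.18 (SE 0.04) in Lsg1 siRNA cells and 1.06 (SE 0.04) in scramble siRNA cells. Manf shares its locus with Dcaf1 on the other strand and Rbm15b on the same strand, and Hsp90b1, Dnajb11 and Dnajb9 also overlap noncoding genes. Reads of such overlaps may have been counted for neither gene or for the wrong one, since the strand setting is not given in the sources used here.

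Replicate 1 stood apart in how far its fractions differed. Among the scramble lysates, replicate 1 had the highest ER-bound to whole-cell ratio for 10 of the 10 genes, and among the Lsg1 siRNA lysates for 9 of 10. The 10 genes share these libraries, and the share over all genes was not counted. The median log2 ratio of the 10 genes was 0.93, 0.83 and 0.81 in Lsg1 siRNA lysates 1, 2 and 3, and 0.89, 0.80 and 0.79 in scramble lysates 1, 2 and 3. The ER-bound replicate 1 libraries were also farthest from the whole-cell libraries on the first principal component, and the part this played in the ratios was not tested. With any 1 of the 12 libraries left out, all 10 genes were still called higher with both siRNAs.

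**Figure D2:**
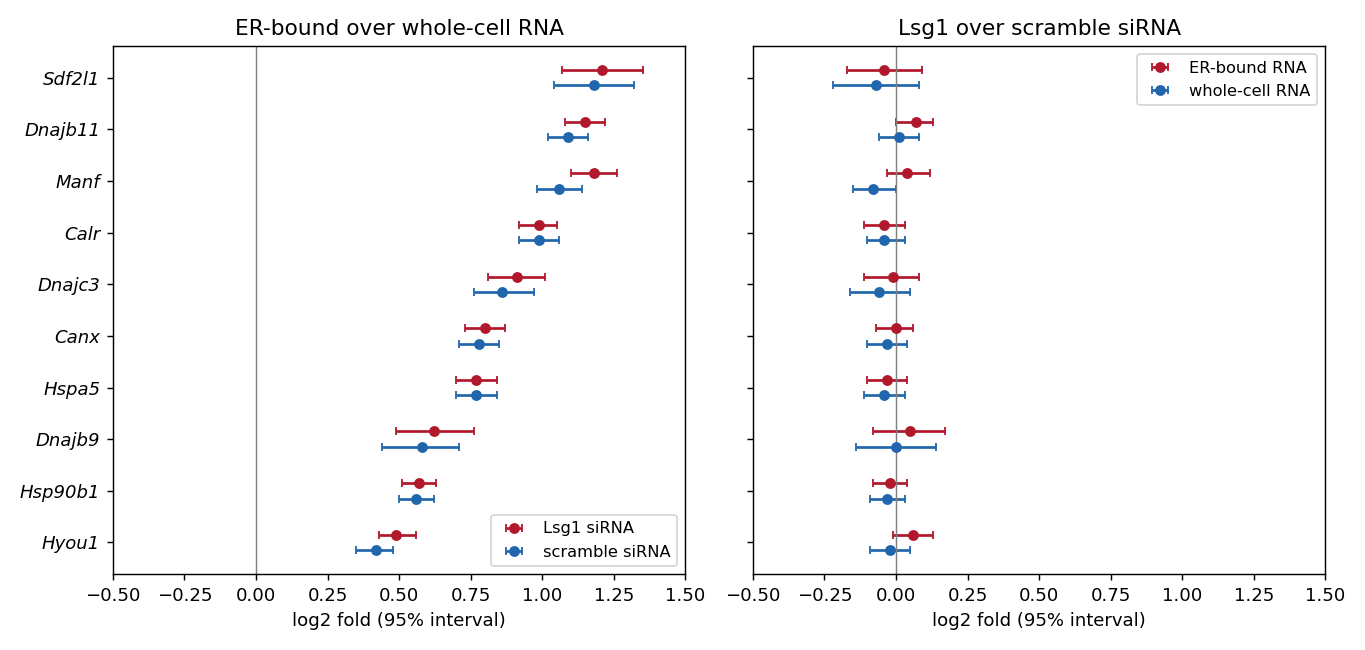
Log2 fold of each chaperone mRNA with its 95% interval from edgeR, for ER-bound over whole-cell RNA (left; Lsg1 siRNA in red, scramble siRNA in blue) and for Lsg1 over scramble siRNA (right; ER-bound RNA in red, whole-cell RNA in blue). On the left all intervals lie above 0, from Sdf2l1 at 1.21 and 1.18 down to Hyou1 at 0.49 and 0.42, and on the right the estimates lie between -0.08 and 0.07.

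The levels of the 10 mRNAs themselves covered a wide range. Per kilobase of the longest annotated transcript, Calr was highest in ER-bound RNA, at 397 ± 9.84 CPM per kb with Lsg1 siRNA and 408 ± 15.0 CPM per kb with scramble siRNA (SD, n = 3 each). Hsp90b1 came next there, at 333 ± 12.6 CPM per kb with Lsg1 siRNA and 339 ± 8.77 CPM per kb with scramble siRNA (SD, n = 3 each). In whole-cell RNA the order of these 2 genes was the other way round: Hsp90b1 had 225 ± 2.23 CPM per kb with Lsg1 siRNA and 230 ± 4.49 with scramble siRNA, and Calr had 201 ± 7.48 with Lsg1 siRNA and 206 ± 3.14 with scramble siRNA (CPM per kb, SD, n = 3 each). The libraries of these 2 genes did not overlap in any group. Canx and Hspa5 followed in all 4 groups, and their libraries overlapped in ER-bound scramble and whole-cell Lsg1 siRNA samples. Manf was the fifth in every group. Dnajb9 and Dnajc3 were the lowest, at 12.9 ± 0.972 and 10.9 ± 0.796 CPM per kb in ER-bound RNA with Lsg1 siRNA (SD, n = 3 each). Between Manf and Dnajb9 the order differed by fraction: Dnajb11, Sdf2l1, Hyou1 in ER-bound RNA and Hyou1, Dnajb11, Sdf2l1 in whole-cell RNA. Of these neighbours, Sdf2l1 and Hyou1 overlapped in ER-bound RNA with Lsg1 siRNA, and Dnajb11 and Sdf2l1 in ER-bound RNA with scramble siRNA, where Dnajb9 and Dnajc3 overlapped too. These levels depend on the transcript taken as the length of a gene.

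The 10 genes differed among themselves in how far they were enriched. Differences between paired genes were taken within each of the 6 lysates as log2 ratios of ER-bound over whole-cell CPM and tested with a two-sided exact sign-flip permutation test, for 14 pairs chosen with earlier values of these data known. Every pair had the same sign in 6 of 6 lysates, so that each p was 0.031, the smallest that 6 lysates allow, and 0.031 after Benjamini-Hochberg adjustment over the 14. Among the chaperones, the ratio of Hspa5 exceeded that of Hsp90b1 by 0.20 ± 0.04, and that of Calr exceeded that of Canx by 0.20 ± 0.03 (log2, SD, n = 6 lysates, exact permutation test). Dnajb11 exceeded Dnajc3 by 0.23 ± 0.07 and Dnajb9 by 0.52 ± 0.08. Manf exceeded Hyou1 by 0.67 ± 0.05, the widest gap between chaperone pairs compared. Of these 5 differences, 2 did not hold once the trends of all genes with GC content and transcript length were removed: Calr minus Canx became -0.09 and Dnajb11 minus Dnajc3 became -0.11. The other 3 stayed positive, at 0.17 for Hspa5 minus Hsp90b1, 0.32 for Dnajb11 minus Dnajb9 and 0.45 for Manf minus Hyou1.

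The folds fell along the length of the coding sequence. Manf has 179 codons and Sdf2l1 has 221, whereas Hsp90b1 has 802 and Hyou1 has 999, and Dnajb9, with 222 codons, stood apart from this order at a low fold. Across the 10 genes Spearman's rho between codons and log2 fold was -0.81 in Lsg1 siRNA cells and -0.77 in scramble siRNA cells, and Pearson's r on log2 codons was -0.69 and -0.65 in the same cells. These are descriptions across genes that share all 12 libraries, not across independent replicates. The fold also fell with the length of the longest transcript over 17652 genes, with rho of -0.29 in Lsg1 siRNA cells and -0.33 in scramble siRNA cells. With the GC and length trends of all genes removed, rho over the 10 was -0.62 in Lsg1 siRNA cells and -0.50 in scramble siRNA cells. In that setting Dnajc3 had the highest log2 fold of the 10, 1.11 in Lsg1 siRNA cells and 1.08 in scramble siRNA cells, and Hyou1 kept the lowest, 0.55 and 0.47 in the same cells.

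**Figure D3:**
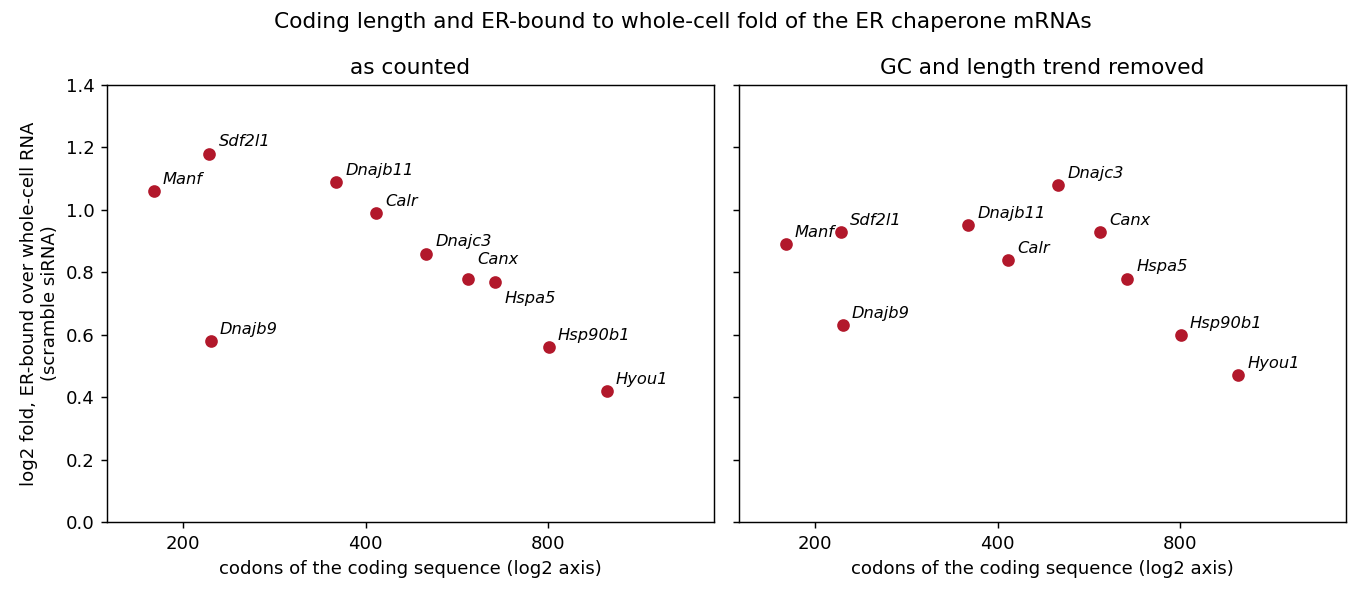
Log2 fold of ER-bound over whole-cell RNA in scramble siRNA cells against the number of codons of each chaperone gene (log2 axis), as counted (left) and with the GC and length trends of all genes removed (right). On the left the points run down from Sdf2l1 at 1.18 to Hyou1 at 0.42 with Dnajb9 below the others of its length, and on the right Dnajc3 is highest at 1.08.

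Many resident proteins of the ER lumen carry a retrieval signal at the very end of the chain, so the ends of the coding sequences are shown, with the last 4 sense codons in capitals and the stop codon in lower case (GENCODE M21 transcripts, GRCm38).
Hspa5: AAAGATGAGTTGtag
Hsp90b1: AAGGATGAATTGtaa
Calr: AAGGATGAGCTGtag
Hyou1: AACGATGAACTAtaa
Sdf2l1: CACGATGAACTCtga
Manf: CGGACTGATCTGtag
Dnajb11: CTGCAGGGCTATtag
Dnajc3: TTCCACTTCAATtaa
Dnajb9: TGTTCAGGACAAtag
Canx: CCACGAAGAGAGtga

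In 5 of the 10, Hspa5, Hsp90b1, Calr, Hyou1 and Sdf2l1, the middle pair of these 4 codons encodes aspartate and glutamate, as in the classical signal, and this was so for 84 of the 14604 tested genes with a coding sequence, or 0.575%. Manf ends in a variant of it, and the others end differently. The 5 genes with the classical ending had log2 folds from 0.49 to 1.21 in Lsg1 siRNA cells, and the 5 without it from 0.62 to 1.18. Both kinds thus covered much of the same range.

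The 7 cytosolic and mitochondrial relatives compared in pairs, Hspa8, Hspa9, Hsp90aa1, Hsp90ab1, Trap1, Hspa4 and Hsph1, had lower ratios than their ER counterparts. This was not so for every relative: cytosolic Hspa1a had a log2 fold of 0.80 in Lsg1 siRNA cells and 0.79 in scramble siRNA cells, where Hspa5 had 0.77 in both. Hspa1a was low, at group means of 7.83 to 13.7 CPM, and shares nearly all of its sequence with Hspa1b. Hspa8, the constitutive cytosolic Hsp70, had 2247, 2388 and 2346 CPM in ER-bound RNA with Lsg1 siRNA, against 2272, 2247 and 2234 CPM in whole-cell RNA with Lsg1 siRNA, and these overlapped. With scramble siRNA it had 2202, 2320 and 2358 CPM in ER-bound RNA, against 2036, 2109 and 2241 CPM in whole-cell RNA, which overlapped too, although edgeR called the log2 fold of 0.11 (SE 0.03, Benjamini-Hochberg adjusted p = 0.0088). The Hspa5 ratio exceeded the Hspa8 ratio by 0.69 ± 0.09 and that of Hspa9, the mitochondrial Hsp70, by 1.18 ± 0.07 (log2, SD, n = 6 lysates, exact permutation p = 0.031 each). This p is the smallest that 6 lysates allow, and the pairs were chosen with earlier values known. Hsp90b1 exceeded the cytosolic Hsp90 genes Hsp90aa1 by 1.04 ± 0.08 and Hsp90ab1 by 0.50 ± 0.04, and the mitochondrial Trap1 by 1.04 ± 0.06. Hyou1, the least enriched of the 10, exceeded the cytosolic exchange factors Hspa4 by 0.76 ± 0.09 and Hsph1 by 0.82 ± 0.10. In edgeR's quasi-likelihood test (Benjamini-Hochberg), Hsp90aa1, Hspa4, Hsph1, Hspa9 and Trap1 were called lower in ER-bound RNA with either siRNA, at log2 folds of -0.28 to -0.51. All of these differences kept their sign with the GC and length trends removed.

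Relatives that are themselves ER proteins were closer to the 10. Sdf2l1 exceeded Sdf2, its constitutive relative, by 0.19 ± 0.09, and Canx exceeded Clgn, a calnexin relative known for its role in the testis, by 0.17 ± 0.09 (log2, SD, n = 6 lysates, exact permutation p = 0.031 each, the smallest possible). With the GC and length trends removed these differences were 0.14 and 0.27. The gap between Canx and Clgn ran from 0.04 to 0.24 over the lysates and was narrower with Lsg1 siRNA. There the edgeR log2 folds were 0.80 for Canx and 0.71 for Clgn, against 0.78 and 0.54 with scramble siRNA. Whether this gap changed with the siRNA was not tested. Sdf2 itself was called higher in ER-bound RNA, at a log2 fold of 1.04 (SE 0.05) in Lsg1 siRNA cells and 0.97 (SE 0.05) in scramble siRNA cells. Cdnf, the relative of Manf, lay below 1 CPM in all 12 libraries and was not called in either.

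**Figure D4:**
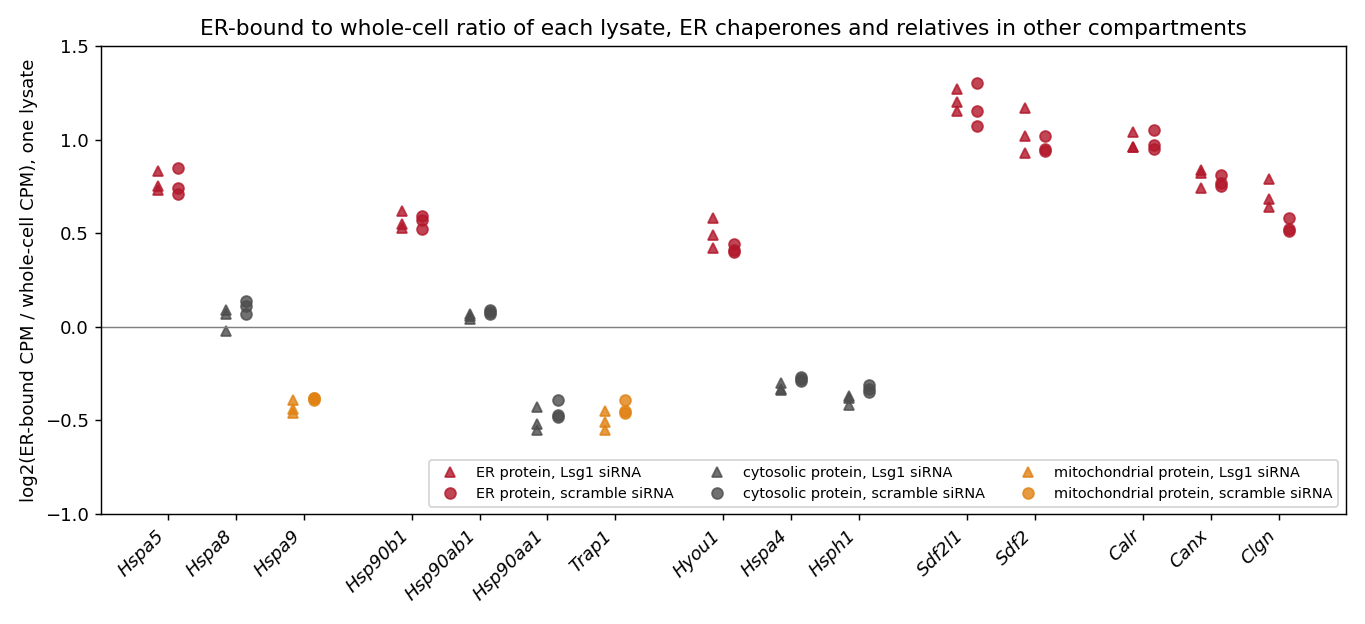
Log2 ratio of ER-bound over whole-cell CPM in each of the 6 lysates (triangles, Lsg1 siRNA; circles, scramble siRNA), by protein family, with genes of ER proteins in red, cytosolic proteins in grey and mitochondrial proteins in orange. Against the Hsp70, Hsp90 and Hsp110 relatives plotted, which leave out Hspa1a and other family genes, the ER gene lies highest in every lysate, for example Hspa5 by 0.57 to 0.85 above Hspa8.

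The first codons are where an ER signal sequence is read, and they are shown for ER genes and cytosolic relatives of the Hsp70, Hsp90 and Hsp110 families, with codons that have T as their second base, all of which encode hydrophobic residues, in capitals (first 20 codons, GENCODE M21 transcripts, GRCm38).
Hspa5: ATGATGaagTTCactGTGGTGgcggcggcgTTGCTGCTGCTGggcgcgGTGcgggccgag
Hspa8: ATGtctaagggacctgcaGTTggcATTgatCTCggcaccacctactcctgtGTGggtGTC
Hsp90b1: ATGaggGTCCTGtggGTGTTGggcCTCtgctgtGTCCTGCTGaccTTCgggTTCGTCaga
Hsp90aa1: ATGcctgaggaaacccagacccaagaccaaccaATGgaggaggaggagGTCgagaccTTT
Hsp90ab1: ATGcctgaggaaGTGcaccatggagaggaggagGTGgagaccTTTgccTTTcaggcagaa
Hyou1: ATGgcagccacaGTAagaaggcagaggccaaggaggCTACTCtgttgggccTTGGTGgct
Hspa4: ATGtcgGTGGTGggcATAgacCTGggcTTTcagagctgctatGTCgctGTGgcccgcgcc

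Hspa5 has 10 such codons among its first 20 and Hsp90b1 has 12, whereas Hspa8 has 6, Hsp90aa1 has 4 and Hsp90ab1 has 5. In the Hsp110 family the order of this count is the other way round, with 6 in Hyou1, 8 in Hspa4 and 7 in Hsph1. The mitochondrial Trap1 has 8. By the longest unbroken run of such codons among codons 2 to 30, Hyou1 has 3, and Hspa4 and Hsph1 have 2. That run is 4 in Hspa5 and 2 in Hspa8, but 3 in both Hsp90b1 and Hsp90ab1. A run of at least 3 was found in 32.6% of tested genes. The 10 ER chaperone genes have between 6 and 12, and the median of 14604 tested genes with a coding sequence is 6. Hyou1, with 6 of its first 20, is at that median, and 8.06% of tested genes have at least 10.

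The partners of these chaperones followed the same direction for the most part. Of 11 other genes listed as partners of BiP or their relatives, 9 were called higher in ER-bound RNA with each siRNA. None of the 11 was called lower by edgeR. Of all genes, 30.6% were called higher and 29.8% lower in Lsg1 siRNA cells, and 29.8% and 29.1% in scramble siRNA cells. Dnajb12, an ER membrane protein whose J domain faces the cytosol, had a log2 fold of 0.76 in Lsg1 siRNA cells and 0.73 in scramble siRNA cells, and Sil1, an exchange factor for BiP, had 0.93 and 0.86 in the same cells. The median of the list was 0.71 in Lsg1 siRNA cells and 0.61 in scramble siRNA cells. Of 12 genes of the calnexin and calreticulin cycle, 11 were called higher with each siRNA, and the medians were 0.71 and 0.58. Pdia3, the disulfide isomerase that works with both lectins, led this list at 1.20 in Lsg1 siRNA cells and 1.08 in scramble siRNA cells. Prkcsh, a subunit of glucosidase II, had 0.90 and 0.82, and Lman2, a cargo lectin, had 0.97 and 0.86.

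Genes that control the unfolded protein response were mixed. Of 15 regulators, 9 were called higher, 2 lower and 4 not in ER-bound RNA with each siRNA by edgeR, with a median log2 fold of 0.20 in Lsg1 siRNA cells and 0.14 in scramble siRNA cells. Xbp1, a transcription factor whose mRNA is spliced at the ER membrane, had 0.60 and 0.55 in the same cells, Creb3 had 0.65 and 0.64, and Ppp1r15a, which restores translation after stress, had 0.38 and 0.37. In scramble siRNA cells the sensor gene Atf6 was called lower, at -0.28 (SE 0.03), and so was Trib3, at -0.09 (SE 0.03). Of 15 further targets of ATF6 and XBP1, 13 were called higher and 1 lower with each siRNA, with medians of 0.68 and 0.61. Creld2, at 1.26 and 1.18, Pdia6, at 1.02 and 0.99, and Pdia4, at 0.90 and 0.88, were the 3 with the smallest p. Of 24 cytosolic chaperone genes, 8 were called higher and 10 lower in Lsg1 siRNA cells, at a median of -0.04. In scramble siRNA cells 8 of the 24 were called higher, 8 lower and 8 not, at a median of 0.03. The inducible cytosolic Hsp70 genes Hspa1a, at 0.80 and 0.79, and Hspa1b, at 0.26 and 0.35, were called higher with both siRNAs. They share nearly all of their sequence, and reads that match both may be missing from their counts. Of 12 mitochondrial chaperone genes, 5 were called higher and 4 lower in Lsg1 siRNA cells, and 4 higher and 4 lower in scramble siRNA cells. Dnajc15 was highest among the 3 of smallest p, at 0.67 and 0.61. Of all genes, 30.6% were called higher and 29.8% lower in Lsg1 siRNA cells, and 29.8% and 29.1% in scramble siRNA cells. The counts of the cytosolic and mitochondrial lists were not far from these shares.

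Promoters of these genes are known for the ER stress response element (ERSE), and the windows that hold it are shown because the unfolded protein response acts on most of these genes. The element searched was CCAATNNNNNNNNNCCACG on both strands, in RefSeq promoters (GRCm38.p6) of 250 bases before to 50 after the start site. Each window is printed on the strand of the gene, with the match in capitals.
Hspa5 (chr2:34772010-34772058, + strand): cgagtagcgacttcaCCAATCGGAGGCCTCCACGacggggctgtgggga
Hsp90b1 (chr10:86705623-86705671, - strand): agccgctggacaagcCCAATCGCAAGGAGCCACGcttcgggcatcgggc
Hsp90b1 (chr10:86705518-86705566, - strand): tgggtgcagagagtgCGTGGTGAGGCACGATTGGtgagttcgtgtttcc
Calr (chr8:84847060-84847108, - strand): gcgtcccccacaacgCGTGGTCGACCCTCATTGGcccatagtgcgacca
Canx (chr11:50325785-50325833, - strand): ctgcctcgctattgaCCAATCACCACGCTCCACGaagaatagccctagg
Dnajc3 (chr14:118937812-118937860, + strand): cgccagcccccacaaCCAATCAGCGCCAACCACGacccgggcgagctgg

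Of the 8 chaperone genes with a promoter in the table, 5 held the element, against 0.119% of 32851 promoters of the same length. Dnajb11 held the related ERSE-II, ATTGGNCCACG, just past its start site, an element found in 0.0365% of these promoters. Sdf2l1 and Dnajb9 held neither, and the core TGACGTGG of the XBP1 element was in none of the 8 and in 0.676% of all promoters. A match describes letters only.

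With Lsg1 siRNA the 10 mRNAs stood at 0.973 to 1.05 times their scramble siRNA level in ER-bound RNA and at 0.949 to 1.01 times that level in whole-cell RNA, by the fitted folds. In ER-bound RNA, 0 of the 10 were called in edgeR's quasi-likelihood test (Benjamini-Hochberg), against 2.63% of all genes called higher and 1.38% called lower. Their log2 folds of Lsg1 over scramble siRNA ran from -0.04 to 0.07, and the 95% intervals reached from -0.17 for Sdf2l1 to 0.17 for Dnajb9. At an unadjusted p under 0.05 in edgeR there was 1 of the 10, beside 17.2% of all genes. It was Dnajb11, with a log2 fold of 0.07 (SE 0.03) and an edgeR adjusted p of 0.26. DESeq2 and limma-voom called 0 of the 10 as well, with 0 and 1 at an unadjusted p under 0.05. In Dnajb11 and Hyou1 all 3 libraries with Lsg1 siRNA lay above all 3 with scramble siRNA, as in 12.5% of all genes, and none of the 10 lay wholly below, as 8.95% of all genes did.

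In whole-cell RNA, 0 of the 10 were called by edgeR, DESeq2 or limma-voom, and 0 had an unadjusted p under 0.05 by any of the 3. Over all genes edgeR called 0% higher and 0% lower there, with 731 genes at an unadjusted p under 0.05, while DESeq2 called 5 genes and limma-voom 0. The log2 folds of the 10 ran from -0.08 for Manf to 0.01 for Dnajb11, and 9 of them were negative, while 51.1% of all genes were positive. The 10 share the same libraries and scaling, so these signs are not independent. Their 95% intervals reached from -0.22 for Sdf2l1 to 0.14 for Dnajb9. Dnajc3 and Manf were lower in every Lsg1 siRNA library than in every scramble siRNA library, as in 5.18% of all genes, and none was higher in every one, against 5.23% of all genes.

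Whether the ER-bound to whole-cell ratio itself moved was tested as the interaction of fraction and siRNA. edgeR called 0 of the 10, and 0.0113% of all genes higher and 0.0113% lower. Lsg1, the siRNA's target, was among those called lower, at -1.22 (SE 0.15, edgeR Benjamini-Hochberg adjusted p = 0.0013). DESeq2 and limma-voom called 0 of the 10, and each of the 3 tools had 1 at an unadjusted p under 0.05. By edgeR, where 6.89% of all genes had an unadjusted p under 0.05, that gene was Manf. Its log2 ratio was higher by 0.12 (SE 0.05, 95% interval 0.01 to 0.23) with Lsg1 siRNA, at an edgeR adjusted p of 0.70. For the other 9 genes the change of the log2 ratio was 0.08 or less in size. Of the 10 changes 9 were positive, beside 51.7% of all genes, and these signs too come from shared libraries.

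In whole-cell RNA edgeR called 0 of all 17702 genes, so none of the 6 lists could have a gene called there. In ER-bound RNA of Lsg1 siRNA cells some partners of the 10 did pass the test. Of the calnexin and calreticulin cycle, 3 of 12 rose: Clgn by 0.22 (SE 0.04), Man1b1, a mannosidase of ER glycoproteins, by 0.21 (SE 0.04) and Pdia3 by 0.12 (SE 0.03). Of the further ATF6 and XBP1 targets 2 of 15 rose, Derl2 by 0.17 (SE 0.04) and Derl1 by 0.14 (SE 0.03), both parts of the channel that exports misfolded proteins. None of the 11 BiP partners or relatives and none of the 15 regulators was called by edgeR. At an unadjusted p under 0.05 in edgeR there were 5 and 3 of them, beside 17.2% of all genes. Of the 24 cytosolic genes, Dnajc9 rose and Hspa1b, Hspa2, Dnaja1 and Dnajc21 fell, and of the 12 mitochondrial genes Hspd1 fell, by 0.10 (SE 0.03). Beside these counts, 2.63% of all genes were called higher and 1.38% lower, and the number called higher, 465, was 161 without ER-bound scramble replicate 2 and 749 with the replicate block. That these genes passed and the 10 did not is no test of a difference between them.

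Other genes had a profile over the 12 libraries like that of the 10. By the root mean square difference of centred log2 CPM from the mean of the 10, the 5 nearest of 9241 genes with at least 10 CPM were Snd1, at 0.021, Serpinh1, Prkcsh, Aplp2 and Fkbp9, at 0.029. Serpinh1 encodes the collagen chaperone Hsp47 and Fkbp9 an ER prolyl isomerase, whereas Snd1 encodes a nuclease with a Tudor domain. Among the 10, Canx was nearest to the mean, at 0.037, and Hyou1 farthest, at 0.199. The nearest to Hspa5 were Gdf3, a secreted growth factor of pluripotent cells, Lman2l and Cr1l, at 0.032 to 0.039.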

How the data were processed

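RNA of ribosomes labelled at the ER and of whole lysates was sequenced in 12 libraries. The deposited files hold raw read counts per gene. The submitters' processing notes name GRCm39, the aligner STAR 2.7.9a, the counter HTSeq 0.11.2, and DESeq2. How strand was handled and which annotation release was used: not given in the sources used here. The 5 summary lines of each file were left out. Gene names, GC content and transcript lengths came from GENCODE M21 (GRCm38) by gene ID, with a name for 52083 of 55416 IDs. Reads in no feature were 2.65% to 5.26% of all. The members, lists, pairs and tests were chosen with earlier results of these data known.

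Counts were scaled by TMM, filtered with filterByExpr (17702 genes) and tested with edgeR 4.0.16 in R 4.3.3: a quasi-likelihood F-test, 1 mean per group, all 12 libraries, 8 residual degrees of freedom and Benjamini-Hochberg adjustment at 0.05. The biological coefficient of variation was 4.42%. The tests were checked on simulated data. CPM are after TMM scaling. DESeq2 1.42.0, limma-voom (limma 3.58.1), other scalings and filters, replicate and lysate blocks, a spline offset for GC and length, and each library left out were alternatives. Named genes beyond the 10 and Lsg1 were up to 3 per list with the smallest p in scramble cells between fractions, fixed relatives, and those nearest in profile; further called or uncalled list genes were named after their values were seen. Figures used matplotlib 3.10.9 in Python 3.11.15. Fractions pair through the shared lysate. Between siRNAs, the deviations of same-numbered libraries from their group means had correlations of 0.399, 0.157 and 0.321 in ER-bound RNA. In whole-cell RNA the correlations were 0.332, -0.00383 and 0.352. None was computed for libraries of different number, so these values do not establish a pairing. The edgeR tests reported used no block, and replicate number and lysate were blocks in alternatives only.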

Additional observations from a re-analysis of the deposited data

How the results depend on the processing

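All 10 chaperone genes were called higher in ER-bound RNA in all 24 alternatives run for each siRNA, and 0 were called in the 23 run for each siRNA comparison and the 24 for the interaction. Counts over all genes did move. For Lsg1 against scramble siRNA in ER-bound RNA, with 465 genes called higher and 245 lower, the replicate block gave 749 and 429, a fit of only the groups compared 216 and 159, and leaving out the 2 libraries with high ENSMUSG00000119584.1 gave 307 higher. Leaving out 1 library at a time gave 161 to 463 higher and 117 to 391 lower. In whole-cell RNA, with 0 and 0, the replicate block gave 4 and 1, no low-count filter 24 and 2, DESeq2 4 and 1, only the groups compared 1 and 1, the GC and length offset 1 higher, without 2 libraries 3 and 1, and leaving out 1 library 0 to 2 higher and 0 to 1 lower. For the interaction, with 2 and 2, the replicate block gave 7 and 6, the lysate as block 7 lower, no low-count filter 19 and 40, DESeq2 10 and 4, and leaving out 1 library 2 to 5 higher and 1 to 3 lower. Blocks changed no call of the 10 genes. With the GC and length offset, an alternative for pairs chosen after seeing the data, the differences Calr minus Canx (-0.09) and Dnajb11 minus Dnajc3 (-0.11) changed sign; the offset's construction removes the trend with length. Library totals as scaling moved the median log2 fold of all genes between fractions to 0.11 in scramble cells. With 3 libraries per group, changes of the 10 mRNAs with Lsg1 siRNA that lie inside the 95% intervals remain compatible with these data.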
